A study of Caenorhabditis elegans with 2 samples.

Results

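The genes described here are the protein-coding genes of the X chromosome that had a peak of EFL-1 near a start in Caenorhabditis elegans. A gene was taken as bound if the summit of a peak in the authors' thresholded list lay within 500 bp of any of its annotated protein-coding transcript starts. That rule found 58 of 2731 X-linked genes, or 2.12% (95% Wilson interval 1.65 to 2.74%), and they were served by 56 peaks. Over the whole genome it found 1770 of 19973 genes (8.86%), and on the autosomes 1712 of 17242 (9.93%). At 15 of the 58 genes the summit lay within 100 bp of a tRNA gene, and these are kept apart from the other 43. The peaks chose the genes, so their presence, signal and closeness to a start are descriptions and no test is attached to them.

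The animals were young adult hermaphrodites of strain YL479, taken whole, in which a GFP-FLAG tag had been fused to the C-terminus of EFL-1 in a stable transgenic line. The study has 1 group of 2 biological replicates, and no untagged, untreated or mutant group was analysed here. The chromatin was sonicated and, per the sample descriptions, pulled down with an antibody to GFP, although the antibody label itself reads efl-1. Tissues were not separated, so binding in few cells and weaker binding in many cells cannot be told apart. The files are lists of peaks on build ce11, each with a summit and a signal value on a scale of the authors' own. Library depth is unknown, since the lists carry no counts of reads, and the intervals given below cover counting error only.

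EFL-1 is a worm member of the E2F family of transcription factors. With its partner DPL-1 and the pocket protein LIN-35 it forms part of the DREAM complex, which binds E2F sequences and the cell cycle homology region (CHR) in promoters, and it is known for control of cell cycle, germline and embryonic genes. In worms the X chromosome is largely silent in much of the germline, and genes with germline expression are scarce on it. The transfer RNA genes, many of which lie on X, are transcribed by RNA polymerase III from promoters inside the gene, of which the B box is one part.

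The sequences under a few summits show what the bound X-linked starts look like. Each stretch is 121 bases of the plus strand of ce11 on chromosome X, with the summit in its centre. It overlaps no annotated exon of a protein-coding gene, and exons of noncoding genes were not counted. The first 3 are shown because they hold an E2F string of 8 bases; the capitals mark its last 7 bases, or their reverse complement. They lie upstream of C04B4.2 (chrX:12283066-12283186), within an intron of pqn-65 and upstream of an inner start (chrX:4617025-4617145), and upstream of kin-29 (chrX:2852565-2852685).
C04B4.2: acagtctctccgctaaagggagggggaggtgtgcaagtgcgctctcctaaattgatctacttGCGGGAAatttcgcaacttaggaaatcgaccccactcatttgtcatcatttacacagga
pqn-65: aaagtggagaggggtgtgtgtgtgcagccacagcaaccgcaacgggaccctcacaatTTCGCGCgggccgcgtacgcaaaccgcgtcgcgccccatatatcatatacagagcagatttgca
kin-29: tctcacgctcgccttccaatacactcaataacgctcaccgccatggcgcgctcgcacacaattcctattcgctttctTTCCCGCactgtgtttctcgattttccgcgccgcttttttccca

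The next pair is shown for the repeat GAGAGA, which 26 of the 42 X-linked peaks away from tRNA genes held within 100 bp of the summit. Capitals mark GAGAGA or its reverse complement upstream of dpy-23 (chrX:4388999-4389119) and T13C5.6 (chrX:6207768-6207888).
dpy-23: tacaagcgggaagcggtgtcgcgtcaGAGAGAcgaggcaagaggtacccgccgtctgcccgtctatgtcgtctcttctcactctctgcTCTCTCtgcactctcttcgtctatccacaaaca
T13C5.6: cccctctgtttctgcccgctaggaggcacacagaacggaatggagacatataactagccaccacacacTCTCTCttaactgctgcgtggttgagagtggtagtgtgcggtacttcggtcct

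A further 3 are shown for GCGCNTTT, a string found in 13 of those 42 peaks, with capitals on it or on its reverse complement. They lie between trap-2 and ile-2, which share 1 peak (chrX:768208-768328), upstream of ppk-3 (chrX:12975801-12975921) and upstream of sdha-1 (chrX:8546147-8546267).
ile-2: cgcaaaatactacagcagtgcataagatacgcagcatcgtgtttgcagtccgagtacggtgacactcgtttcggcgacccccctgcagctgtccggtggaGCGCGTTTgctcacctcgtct
ppk-3: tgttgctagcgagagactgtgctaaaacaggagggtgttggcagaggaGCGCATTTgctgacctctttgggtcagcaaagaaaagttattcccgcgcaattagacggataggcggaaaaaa
sdha-1: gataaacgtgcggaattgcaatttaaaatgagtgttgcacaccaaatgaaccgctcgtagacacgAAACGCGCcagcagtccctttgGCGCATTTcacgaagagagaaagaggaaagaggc

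The last pair are tRNA genes whose own position, not that of the protein-coding gene, lay under the peak. They are a leucine tRNA gene near sor-3 on the minus strand (chrX:353255-353336), printed 5′ to 3′, and a serine tRNA gene near Y7A5A.13 on the plus strand (chrX:15773527-15773608). Capitals mark a match to the B box, taken as GGTTCGA, any 2 bases and CC.
tRNA-Leu: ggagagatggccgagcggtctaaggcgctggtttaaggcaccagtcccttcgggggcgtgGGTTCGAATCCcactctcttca
tRNA-Ser: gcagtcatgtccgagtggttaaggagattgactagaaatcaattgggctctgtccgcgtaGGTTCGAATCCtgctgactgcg

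X had the lowest share of bound genes of the 6 chromosomes, and its bound genes had no strong peaks. The share was 2.12% on X, against 5.63% on V, the next lowest, and 14.8% on III, the highest. When the 1715 bound genes away from tRNA genes were cut into 4 groups by signal, 0 of the 429 strongest, whose signal was 167 or more, lay on X; a count of 0 allows a share of up to 0.699%. X-linked genes made up 10 of 429 (2.33%), 16 of 429 (3.73%) and 17 of 428 (3.97%) of the groups with successively weaker signal. Fewer X-linked genes had even a weak signal near a start: 616 (22.6%) had any pooled candidate peak within 500 bp, against 6967 autosomal genes (40.4%). Of those genes with a candidate, 9.42% on X and 24.6% on the autosomes were bound.

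The X chromosome itself held 244 peaks of the thresholded list. Of these, 147 (60.2%) lay within 100 bp of a tRNA gene, 14 of which were also near a protein-coding start, 42 lay near a start and away from tRNA genes, and 55 lay near neither. On the autosomes the share of peaks at tRNA genes ran from 6.79% on I to 9.88% on IV. The X chromosome also holds 276 of the 612 nuclear tRNA genes. With X cut into 3 stretches of equal length, the 43 bound genes away from tRNA genes fell 15, 9 and 19 to a stretch, or 1.72%, 0.921% and 2.15% of the genes there.

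The strongest X-linked peak away from tRNA genes lay at C49F5.6, annotated as a dentin sialophosphoprotein-like gene (WBGene00008210, chrX:11988314-11991292, plus strand). Its pooled signal was 164, with 90.6 in replicate 1 and 73.6 in replicate 2, and it ranked 380th of the pool, 476th in replicate 1 and 267th in replicate 2. The summit lay 224 bp upstream of the start, between genes. Next came klp-13 (WBGene00002224), a gene for a kinesin-like motor protein, with a pooled signal of 146, 77.8 and 63.5 in replicates 1 and 2, ranks 604 and 355, and a summit 192 bp upstream. At F35C8.8, an uncharacterised gene, the pooled signal was 135, with 71.0 and 64.7 in the replicates at ranks 696 and 345, and the summit 216 bp upstream lay within an untranslated exon of jkk-1. These 3 genes stood above all other X-linked bound genes in the pooled list, and each ranked higher in replicate 2 than in replicate 1.

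The other genes of the 12 strongest peaks away from tRNA genes had pooled signals from 91.4 to 111. C18B12.4, a RING domain gene, had 111, with 70.3 and 48.2 in replicates 1 and 2 (ranks 703 and 570) and a summit 335 bp upstream. At C04B4.2, an EF-hand gene, the pooled signal of 109.8 had no matching candidate in replicate 1 and a signal of 61.6 at rank 374 in replicate 2, with the summit 155 bp upstream. That peak therefore rests on replicate 2 and the pool alone. For puf-9, a gene of the Pumilio family of RNA-binding proteins, the pooled signal was 108, with 62.8 and 39.9 (ranks 800 and 756) and a distance of 311 bp upstream. For serp-1.1, a stress-associated endoplasmic reticulum protein, it was 105, with 68.0 and 40.2 (ranks 732 and 747) and 296 bp upstream. Both genes held nearly the same rank in each replicate.

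K10B3.5, a zinc finger gene, had a pooled signal of 100.9, with 62.7 and 34.7 in the replicates (ranks 805 and 933), and was 1 of only 2 of the 43 genes whose summit lay downstream of the nearest start, at 200 bp. The other was unc-58. F31F6.3, uncharacterised, had a pooled 97.5, then 51.9 and 49.0 in the replicates (ranks 1073 and 551) and a summit 440 bp upstream. K04C1.5, a serine/threonine kinase gene, had 96.1, then 52.1 and 42.2 (ranks 1065 and 685), at 392 bp upstream. The summits of both thus lay in the outer part of the 500 bp range. For pkhm-2, a RUN domain gene, the values were 91.7 in the pool, 44.7 and 41.9 in the replicates (ranks 1304 and 693) and 176 bp upstream. For mrp-4, an ABC transporter gene, they were 91.4, then 61.3 and 36.2 (ranks 833 and 882) and 180 bp upstream.

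**Figure D1:**
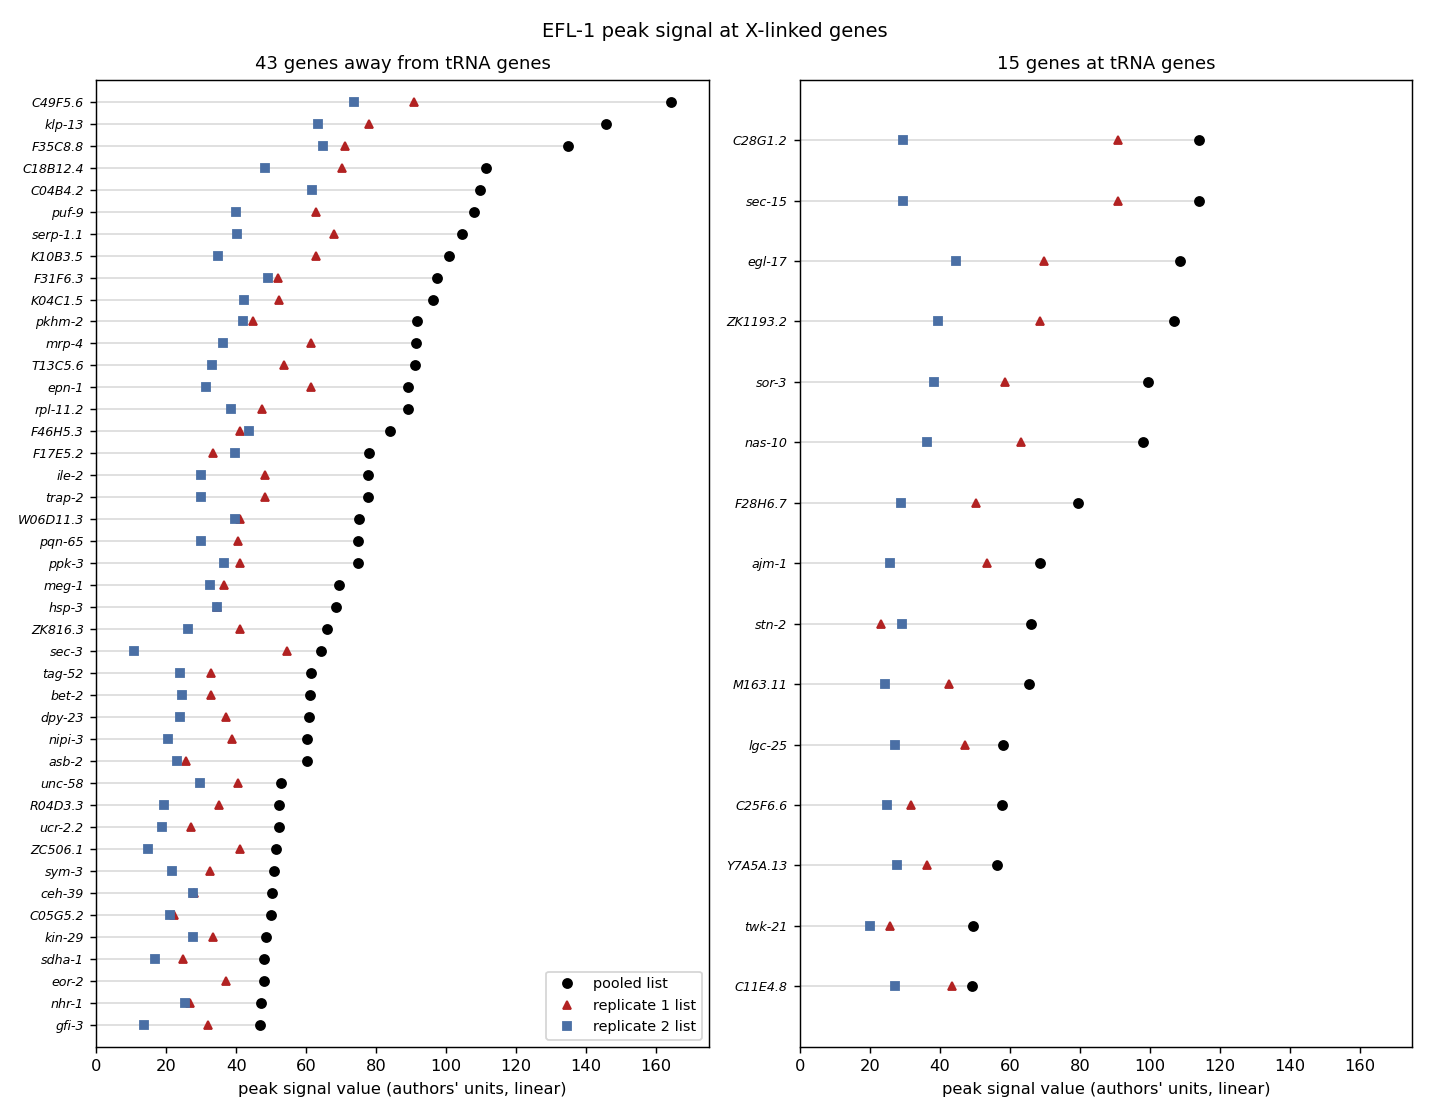
Peak signal value (authors' units, linear axis) of each X-linked bound gene in the pooled list (black circles), replicate 1 (red triangles) and replicate 2 (blue squares), for 43 genes away from tRNA genes (left) and 15 at tRNA genes (right). Signal in the pool runs from 46.9 to 164 on the left and from 49.2 to 114 on the right; C04B4.2 lacks a replicate 1 point and eor-2 a replicate 2 point.

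Several of the remaining genes serve the endoplasmic reticulum, secretion or endocytosis; they are grouped by known roles after the values were seen, with no test. The genes trap-2, a subunit of the complex that assists protein entry into the endoplasmic reticulum, and ile-2, a cargo lectin of the early secretory pathway, shared a peak with a pooled signal of 77.8, and 48.3 and 29.9 in the replicates. Their starts lay 199 and 328 bp from its summit, and they were the only 2 of the 43 genes that shared a peak. The endoplasmic reticulum chaperone gene hsp-3 had a pooled signal of 68.5, with 34.4 in each replicate, and the alpha-mannosidase gene ZC506.1 had 51.2, with 41.0 and 14.8. In endocytosis, epn-1 (epsin) had a pooled signal of 89.1, ppk-3 (a phosphoinositide kinase of endosomes) 74.7, dpy-23 (the mu subunit of a clathrin adaptor) 60.9 and C05G5.2 (a WASH complex subunit) 50.04. The exocyst, which tethers secretory vesicles, had sec-3 in this group at 64.1, and sec-15 among the genes at tRNA genes. Among these genes the replicates were most unlike at sec-3, as given with the ranks.

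The 5 mitochondrial and metabolic genes described next had pooled signals from 48.0 to 83.8. The ATP synthase gene asb-2 had a pooled signal of 60.1, ucr-2.2, a subunit of respiratory complex III, 52.2, and sdha-1, the flavoprotein of succinate dehydrogenase, 48.0. In the replicates ucr-2.2 had 26.9 and 18.7 (ranks 2527 and 2397), 220 bp upstream. The putative mitochondrial carrier F17E5.2 had 77.8, and the putative arginine kinase F46H5.3 had 83.8, from a summit within an intron and 68 bp upstream of an inner start. Of the 41 genes with a signal in both replicates, these 2 alone had one that was lower in replicate 1 than in replicate 2, with ratios of 0.837 and 0.938.

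Other regulators of gene expression and signalling, beside puf-9, K10B3.5 and K04C1.5 among the strongest peaks, had lower signal. The germ granule gene meg-1 had a pooled signal of 69.3, with 36.5 and 32.6 in the replicates. The bromodomain gene bet-2 had 61.1 and nipi-3, a Tribbles-family pseudokinase of the immune response, 60.3. The homeobox gene ceh-39, an X-linked signal element of sex determination, had a pooled 50.1, with 27.8 and 27.6 in the replicates (ranks 2433 and 1301) and a summit 126 bp upstream. The kinase gene kin-29 had 48.3. Thus the E2F string printed for kin-29 lies under a peak near the lower edge of the list.

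The 3 weakest X-linked bound genes were eor-2, nhr-1 and gfi-3. For eor-2, which acts in Ras signalling, the pooled signal was 47.8, with 37.1 at rank 1661 in replicate 1, no candidate in replicate 2, and a summit 120 bp upstream. For the nuclear hormone receptor gene nhr-1 it was 47.2, with 26.7 and 25.2 (ranks 2558 and 1485), 54 bp upstream of an inner start, which made it the closest of the 43. For gfi-3 it was 46.9, with 31.9 and 13.7 (ranks 2000 and 4299), 110 bp upstream. Just below the list lay pdi-2, a protein disulfide isomerase gene, with a pooled candidate of 45.3 at 94 bp upstream, F16B12.6 with 44.7 and C14A11.9 with 44.6 at 119 bp upstream. The signals on either side of the edge differ by little.

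The remaining genes away from tRNA genes ranged in pooled signal from 50.8 to 91.1. They were T13C5.6 (91.1), rpl-11.2 (89.1), W06D11.3 (74.9), pqn-65 (74.9), ZK816.3 (66.0), tag-52 (61.4), unc-58 (52.9), R04D3.3 (52.3) and sym-3 (50.8). The ribosomal protein gene rpl-11.2 had 47.4 and 38.5 in the replicates (ranks 1213 and 801), 382 bp upstream. Over all 43 genes, 36 summits lay outside protein-coding genes, 5 in their introns and 2 in their untranslated exons, and none in a coding exon. Genes for noncoding RNAs were left out of that count. Such genes, other than tRNA genes, lay within 100 bp of some summits, as at C18B12.4, puf-9, T13C5.6, epn-1, ZK816.3, dpy-23 and sdha-1.

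The limits of the rule leave a few genes near either side. By distance, crn-4 at 501 bp and syd-2 at 504 bp upstream lay just outside, and epn-1 at 494 bp upstream and ajm-1 at 486 bp downstream lay just inside. In pooled signal crn-4 had 52.8 and syd-2 52.0. By distance to a tRNA gene, unc-58, a potassium channel gene with a pooled 52.9 and replicate values of 40.5 and 29.6 (ranks 1469 and 1186), lay 109 bp away and was kept among the 43. The next, gfi-3, was 1513 bp away, while lgc-25 (35 bp) and Y7A5A.13 (24 bp) were the outermost inside that limit.

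Compared with autosomal bound genes away from tRNA genes, the 43 X-linked genes had a narrower and lower range of pooled signal. Their median was 74.7, with quartiles of 52.6 and 91.5 and a range of 46.9 to 164; the 1672 autosomal genes had a median of 95.1, quartiles of 63.8 and 169.6 and a range of 45.6 to 1895. The ranges overlap from the lower edge up to the strongest X-linked peak, and 1230 autosomal genes had a signal no higher than that peak, with a median of 77.5. Summits lay upstream of the start at 41 of 43 X-linked genes (95.3%) and at 91.4% of the autosomal ones. The median distance to the start was 216 bp (range 54 to 494) on X and 184 bp on the autosomes, or 188.5 bp at those 1230 genes. A summit within 200 bp was found at 19 of 43 (44.2%, interval 30.4 to 58.9%) against 54.1%, so the X-linked interval covers the autosomal share.

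**Figure D2:**
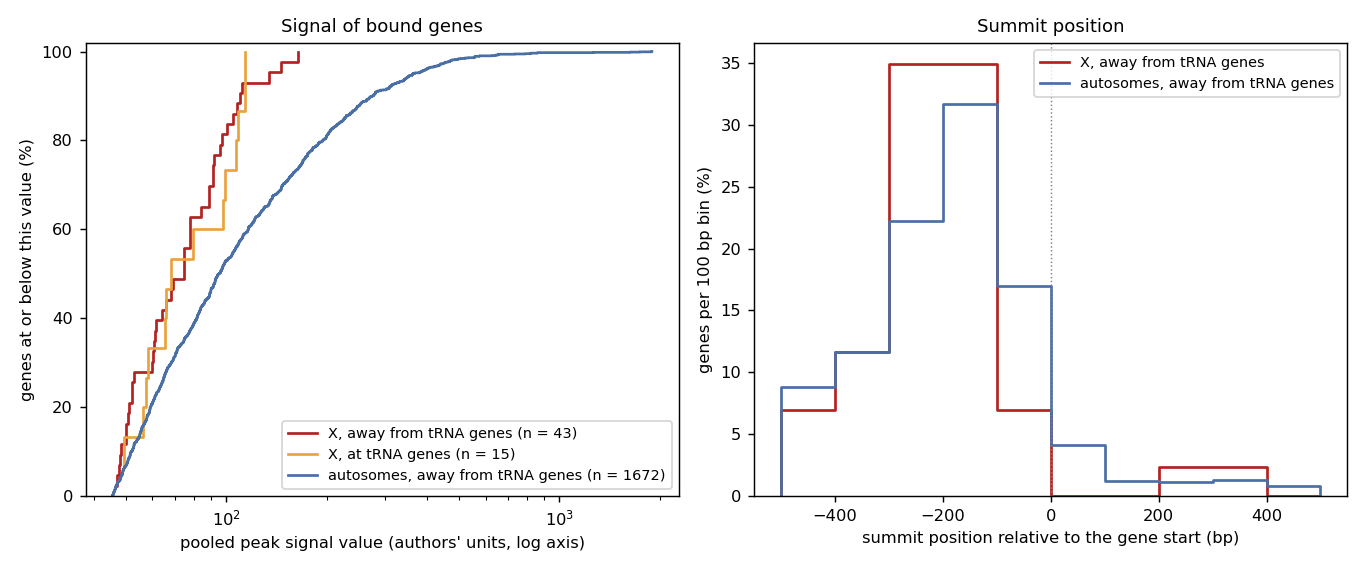
Left: share of bound genes (%) at or below each pooled signal value (authors' units, log axis) for X-linked genes away from tRNA genes (red, n = 43), X-linked genes at tRNA genes (orange, n = 15) and autosomal genes away from tRNA genes (blue, n = 1672). The X curves end at 164 and 114, the autosomal one at 1895. Right: share of genes (%) per 100 bp bin of summit position relative to the start for the red and blue groups; 95.3% and 91.4% lie upstream.

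Replicate support was judged by whether a peak overlapped a candidate within the first 2179 ranks of each replicate, which is the number of nuclear peaks in the thresholded list. On X, 31 of 43 genes (72.1%, interval 57.3 to 83.3%) had support in both, against 1275 of 1672 (76.3%) on the autosomes and 67.9% of the 1230 autosomal genes in the same range of signal. Against all autosomal bound genes away from tRNA genes, the X-linked share was lower under every alternative setting. The 3 comparisons given next were picked because their X-linked interval lay below the autosomal share. From the peaks of replicate 2 alone it was 31 of 53 (58.5%, interval 45.1 to 70.7%) against 82.9%. That list holds only the first 2179 ranks of replicate 2, so the share there measures rank in replicate 1 alone. With starts up to 1000 bp away it was 40 of 66 (60.6%, 48.5 to 71.5%) against 76.3%. At the GC content of the middle 50% of X-linked peaks (42.4 to 51.6%) it was 11 of 20 (55%, 34.2 to 74.2%) against 79.2%. With starts within 200 bp it was 11 of 19 (57.9%, 36.3 to 76.9%) against 76.3%, where the interval just covered the autosomal share. The 12 of the 43 genes without support in both replicates were C04B4.2, sec-3, asb-2, R04D3.3, ucr-2.2, ZC506.1, ceh-39, C05G5.2, sdha-1, eor-2, nhr-1 and gfi-3. All but C04B4.2 had a pooled signal of 64.1 or less. Any candidate at all was found in both replicates for 41 of 43 genes.

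The excess of replicate 1 signal over replicate 2 signal was smaller at the X-linked genes. The ratio of the signal in replicate 1 to that in replicate 2 had a median of 1.36 over the 41 X-linked genes with both values, against 1.81 over the autosomal genes and 1.80 over those in the same range of signal. In replicate 1 the X-linked genes had a median rank of 1443.5 against 812 for autosomal genes, and in replicate 2 of 1134 against 951. Against the autosomal genes in the same range of signal, whose median ranks were 1098.5 and 1281, the X-linked genes ranked weaker in replicate 1 and stronger in replicate 2. A rank within the first 2179 was reached in replicate 1 by 36 of 43 (83.7%) against 92.5%, or 89.8% in the same range of signal, and in replicate 2 by 36 of 43 (83.7%) against 82.5%, or 76.4%. With 1 library for each replicate, no test of this difference over samples can be made. The members whose ranks were most unlike were sec-3, ZC506.1 and, among the genes at tRNA genes, stn-2. At sec-3 the signals were 54.3 and 10.6 and the ranks 1002 and 7561, from a summit 203 bp upstream. At ZC506.1 the ranks were 1445 and 3652, from 156 bp upstream, and at stn-2 they were 3252 and 1204.

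**Figure D3:**
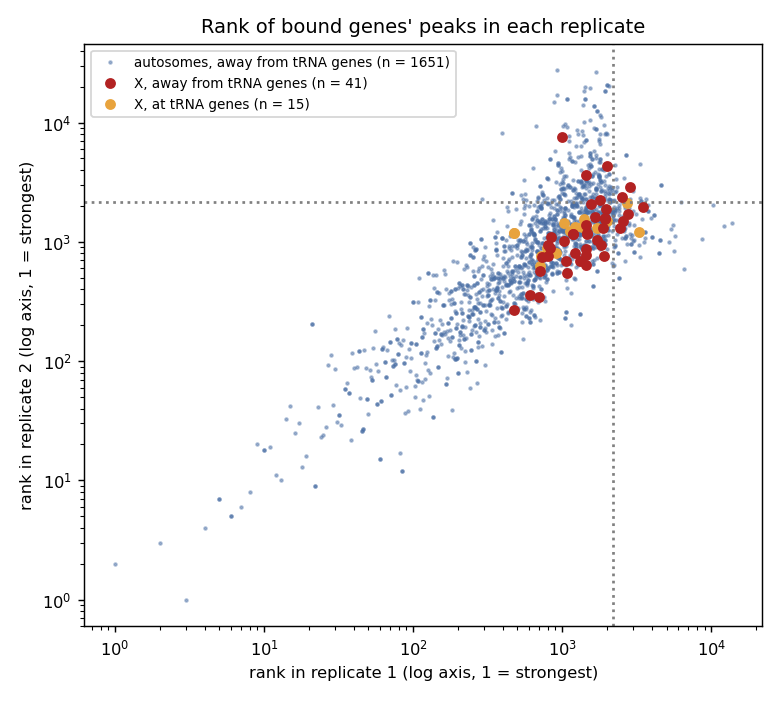
Rank of each bound gene's peak in replicate 1 (horizontal) and replicate 2 (vertical), both log axes with 1 the strongest, for autosomal genes away from tRNA genes (blue, n = 1651), X-linked genes away from tRNA genes (red, n = 41) and X-linked genes at tRNA genes (orange, n = 15); dotted lines mark rank 2179. The strongest ranks of the X-linked genes are 473 in replicate 1 and 267 in replicate 2, and sec-3 lies highest of them at 1002 and 7561.

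Bound X-linked genes mostly stood alone at their peaks. A peak near the starts of 2 or more genes served 2 of 43 X-linked genes (4.65%, interval 1.28 to 15.5%), which are trap-2 and ile-2, against 811 of 1672 autosomal genes (48.5%) and 47.9% of those in the same range of signal. From the peaks of replicate 1 alone it was 6 of 47 (12.8%) against 48.4%. Gene spacing differed too: a start of another protein-coding gene within 500 bp was found for 5.64% of all X-linked genes and 13.3% of all autosomal genes. For the bound genes away from tRNA genes it was 0 of 43 on X (interval up to 8.20%) and 36.4% on the autosomes. Within 1000 bp it was 4 of 43 (9.30%) and 60.8%, against 11.2% and 27.5% of all genes. Within 1000 bp the share on X was near that of all X-linked genes, and the share on the autosomes above that of all autosomal genes. The rule counts every gene with a start within 500 bp of a summit, so close neighbours enter together through 1 peak. That raises the share with a neighbour by construction. With the nearest start only, 1310 autosomal genes were bound in place of 1712. How much of the autosomal excess comes from the rule was not tested.

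In the thresholded list, E2F strings were found at X-linked and autosomal bound genes at similar shares. Neither these shares nor those of GCGCNTTT below are given at like GC content, which differed between the groups. The strings TTTCCCGC, TTTCGCGC, TTTGCCGC and TTTGGCGC were sought on both strands within 100 bp of the summit. Of the 42 X-linked peaks away from tRNA genes, 7 (16.7%, interval 8.32 to 30.6%) held one, against 20.0% of the autosomal peaks, 14.4% of those in the same range of signal and 3.30% of X-linked pooled candidates outside the list. Windows of the same length centred 150 bp upstream of the 5′ end of each X-linked gene held one in 2.49% of cases. These windows do not sample inner starts, such as those bound at pqn-65 and nhr-1. From the peaks of replicate 1 alone, the X-linked share was 4 of 44 (9.09%, interval 3.59 to 21.2%), against 19.3% on the autosomes. From those of replicate 2 alone it was 11 of 52 (21.2%), against 21.5%. The string lay within 1 base of the summit at pqn-65, 6 bp from it at C04B4.2, 14 bp at F35C8.8, 20 bp at kin-29, 27 bp at sdha-1, 39 bp at F46H5.3 and 91 bp at ceh-39. Without the first base of each, the strings were found in 17 of 42 peaks (40.5%), against 36.0% of autosomal peaks, and in 5.75% of X-linked upstream windows. C49F5.6 and klp-13, the strongest pair, held only the shorter form, each 30 bp from the summit.

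CHR strings were scarcer, and GA repeats more common, at the X-linked peaks than at the autosomal ones. TTCGAA or TTTGAA was found in 12 of 42 X-linked peaks (28.6%, interval 17.2 to 43.6%), against 63.2% of autosomal peaks and 59.5% of those in the same range of signal. All X-linked upstream windows held one in 49.7% of cases and autosomal ones in 56.9%. GAGAGA was found in 26 of 42 (61.9%, interval 46.8 to 75%), against 21.4% (19.3 to 23.8%) and 22.9%, and in 17.9% and 15.3% of the upstream windows. On each autosome by itself GAGAGA was found in 18.9 to 24.3% of the peaks. Those shares came with a difference in base composition: the median GC content of the windows was 46.8% on X and 38.3% on the autosomes. Among peaks with the GC content of the middle 50% of X-linked peaks (42.4 to 51.6%), GAGAGA was found in 14 of 20 on X (interval 48.1 to 85.5%) and 37.1% of 272 on the autosomes, and CHR strings in 6 of 20 (14.5 to 51.9%) and 48.2%. At like GC content the X-linked interval for CHR thus covers the autosomal share. GCGCNTTT was found in 13 of 42 X-linked peaks (31.0%, interval 19.1 to 46.0%) and 24.1% of autosomal ones, against 2.75% of X-linked upstream windows. It overlaps the E2F string TTTGGCGC at sdha-1.

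Both GAGAGA and GCGCNTTT were chosen after the letters of the X-linked windows had been read and words in them counted, so their shares on X are descriptions of the windows they came from. The members with GCGCNTTT were C49F5.6, F17E5.2, trap-2 and ile-2 (1 peak), ppk-3, hsp-3, sec-3, tag-52, bet-2, ucr-2.2, ZC506.1, sym-3, C05G5.2 and sdha-1. All but C49F5.6 had a pooled signal of 77.8 or less. In the stronger 50% of the list the string was found in 1 of 16 X-linked peaks (6.25%) against 27.2% of autosomal ones. Among the 55 X-linked peaks near neither a start nor a tRNA gene, 34.5% held GAGAGA, 36.4% a CHR string, 16.4% an E2F string and 12.7% GCGCNTTT, with a median GC content of 44.3%.

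**Figure D4:**
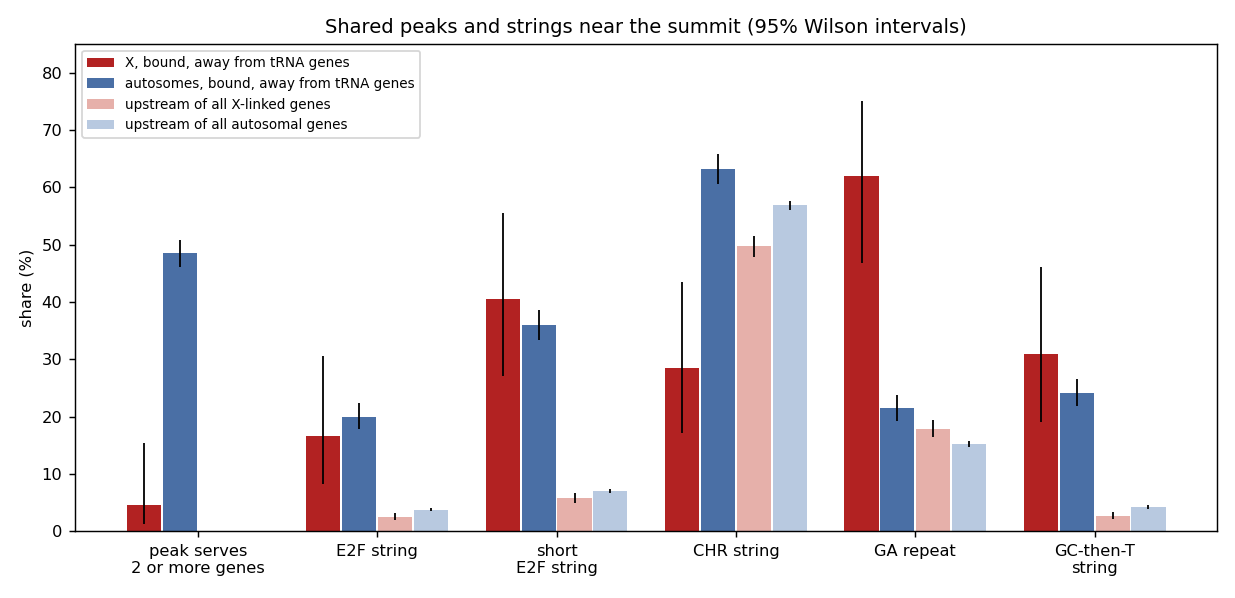
Share (%) of genes whose peak serves 2 or more genes, and of peaks or windows that hold each string, for X-linked (red) and autosomal (blue) bound genes away from tRNA genes, and for windows upstream of all X-linked (pale red) and autosomal (pale blue) genes; the first measure is not defined for the windows. The short E2F strings lack the first base, CHR is TTCGAA or TTTGAA, the GA repeat is GAGAGA and the GC-then-T string is GCGCNTTT; bars start at 0 and lines are 95% Wilson intervals. GAGAGA reaches 61.9% in the red bars against 21.4% in the blue, and CHR 28.6% against 63.2%.

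The 15 genes at tRNA genes were served by 14 peaks, and their pooled signal had a median of 68.4 with a range of 49.2 to 114. The strongest peak, with a pooled signal of 114 and replicate signals of 90.8 and 29.5 (ranks 473 and 1190), lay near a glutamate tRNA gene, 75 bp downstream of the start of the serpin gene C28G1.2 and 376 bp upstream of that of the exocyst gene sec-15. For egl-17, a fibroblast growth factor ligand gene of the worm, the pooled signal was 109, with 69.6 and 44.4 (ranks 710 and 627), and the summit lay at an aspartate tRNA gene in an intron, 130 bp downstream of the start. That peak is the only reason why egl-17 counts as bound.

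ZK1193.2 had a pooled signal of 107, with 68.7 and 39.5 in the replicates (ranks 723 and 768), at a glutamine tRNA gene 462 bp upstream of an inner start. At sor-3, a gene related to the Polycomb-like regulator sop-2, it was 99.3, with 58.6 and 38.2 (ranks 901 and 807), at a leucine tRNA gene 295 bp upstream. For nas-10, a zinc metalloproteinase gene, it was 98.0, with 63.1 and 36.2 (ranks 793 and 880), at a glycine tRNA gene 343 bp upstream. In all 5 of these peaks replicate 1 had the higher signal, as at most bound genes. The ratio of replicate 1 to replicate 2 signal had a median of 1.73 and a lower quartile of 1.42 over the 15 genes. At autosomal genes at tRNA genes these were 1.60 and 1.13.

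The others were F28H6.7 at an arginine tRNA gene (79.4), the apical junction gene ajm-1 at a glutamine one (68.4), the syntrophin-related gene stn-2 at a glutamate one (66.0), M163.11 at a lysine one (65.5), the ligand-gated channel gene lgc-25 at an aspartate one (58.1), C25F6.6 at a lysine one (57.6), Y7A5A.13 at a serine one (56.2), the potassium channel gene twk-21 at a valine one (49.4) and C11E4.8 at an alanine one (49.2). The signals of stn-2 were 23.0 and 29.2 in the replicates, from a summit 448 bp upstream. In the replicates ajm-1 had 53.3 and 25.7 (ranks 1029 and 1447), lgc-25 had 47.2 and 27.3 (ranks 1219 and 1329) 398 bp upstream, and Y7A5A.13 had 36.3 and 27.7 (ranks 1715 and 1297) 355 bp upstream. For twk-21 the signals were 25.6 and 20.1 (ranks 2730 and 2122), 223 bp downstream of the start.

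At the tRNA genes the summits lay farther from the protein-coding starts, with a median of 376 bp and 10 of 15 upstream, against 295 bp and 60% at the 40 autosomal genes at tRNA genes. Replicate support was found for 13 of 15 (86.7%, interval 62.1 to 96.3%), against 30 of 40 (75%) of those autosomal genes. The peak shared by C28G1.2 and sec-15 counts for both genes. The median pooled signal of the 40 autosomal genes was 73.6. None of the 14 X-linked peaks held an E2F string of either length, where a count of 0 allows a share of up to 21.4%. Of 39 autosomal peaks at tRNA genes, 1 (2.56%) held the longer form and 3 (7.69%) the shorter. A CHR string was found in 9 of the 14 (64.3%, interval 38.8 to 83.7%), against 48.7% of those autosomal peaks. GAGAGA was found in 3 (21.4%, interval 7.57 to 47.6%), against 17.9%. Both X-linked intervals cover the autosomal share. At sor-3 and Y7A5A.13 the CHR letters TTCGAA lie inside the B box printed above. The B box letters were found in 9 of the 14 tRNA genes (64.3%), against 64.1% of all X-linked tRNA genes. Identical copies of these 14 genes numbered 1 to 29 in the genome, so reads over most of them could have more than 1 source. The part of such reads in these peaks was not tested.

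Gene lists were assembled for the X chromosome with earlier results of these data known, and none had more than 1 X-linked member bound. The 2.12% of all X-linked genes is the background for each, and 9.93% that for the autosomal members. Bound were 1 of 2 X-linked ribosomal protein genes (rpl-11.2), against 52 of 79 on the autosomes. In an oxidative phosphorylation list it was 1 of 2 (ucr-2.2), against 19 of 51. Of homeobox genes 1 of 18 was bound (ceh-39), against 3 of 45 on the autosomes. Of nuclear hormone receptor genes it was 1 of 23 (nhr-1), against 1 of 246. Of 7 genes of sex determination and dosage compensation 1 was bound, again ceh-39, and that list had no autosomal member. The oxidative phosphorylation list, taken from name families such as cox, nuo and ucr, leaves out asb-2 and sdha-1, which were bound, so its counts do not cover the whole process. The developmental signalling list had 1 of 13 bound (egl-17), and the ion channel list 1 of 26 (twk-21), each at a tRNA gene. On the autosomes these lists had 1 of 1 and 3 of 76 bound. The ion channel list, also drawn by gene name, leaves out unc-58, bound away from tRNA genes, and lgc-25, bound at one. None was bound of 34 neuropeptide, 27 collagen, 7 chromatin and synMuv, 5 vitellogenin, 5 ubiquitin pathway, 4 histone, 3 vacuolar ATPase, 3 Rab or Arf GTPase, 2 cell cycle, 1 splicing factor and 1 translation factor genes on X. The autosomal counts, in the same order, began with 1 of 106, 4 of 129, 3 of 9 and 0 of 1. Next were 15 of 40, 3 of 68, 5 of 17 and 1 of 26, and then 5 of 15, 13 of 32 and 17 of 32. The mitochondrial ribosomal protein and proteasome lists had no member on X. With so few X-linked members, a list with 1 of 2 bound says little beyond the gene named. A list with none bound cannot be told apart from the 2.12% background.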

How the data were processed

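Peak lists of 2 biological replicates of EFL-1-GFP chromatin immunoprecipitation on build ce11 were used, per the deposited descriptions: 30000 candidate peaks for each replicate and for the pool of both, and the authors' optimal list thresholded by the irreproducible discovery rate. Signal values were deposited by the authors on an unstated scale. The sources used here do not give the aligner, the peak caller, the threshold or how multiply mapped reads were handled. All 2179 nuclear peaks of the optimal list recur in the pooled list. Depth is unknown. Lists on ce10 and the control library were not used here.

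Summits were compared with WBcel235, the same assembly as ce11, and Ensembl release 115 gene models; product names are from RefSeq. A gene counted as at a tRNA gene if every one of its peaks within 500 bp lay within 100 bp of one. Replicate values are those of the strongest overlapping candidate (at least 1 bp), and strings were sought within 100 bp of the summit. Shares have 95% Wilson intervals. No significance test was made: the peaks chose the genes, and genes are not replicates.

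The members and gene lists were chosen with earlier results of these data known. Named in full are the genes of the 12 strongest peaks away from and 5 at tRNA genes, the 3 weakest, those near each limit, members of lists and the 3 with the most unlike ranks; genes grouped by role were added after the values were seen. The comparisons of shared peaks, neighbouring starts, CHR, GAGAGA, GCGCNTTT, autosomal genes in the range of X signal and equal GC were also chosen after seeing the data. The assignment of peaks to genes, the overlap of peaks, the distance to tRNA genes and the search for strings were tested on simulated data. Medians, shares and intervals were not. Alternatives were other distances and windows, the stronger 50% of peaks, the nearest start alone, a shorter string and each replicate alone. Scripts ran in Python 3.11.15 with pandas 2.3.3, numpy 2.4.6, scipy 1.17.1 and matplotlib 3.10.9.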

Additional observations from a re-analysis of the deposited data

How the results depend on the processing

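Of 79 values under alternatives for 10 results, 59 were counted as the same as the reported value and 20 as moved. The values on shared peaks, CHR, GAGAGA and GCGCNTTT were chosen after seeing the data. Shares counted as the same all lay within the wide interval of the reported share, so the label does not mean that they were close. Shared peaks of 12.8% from replicate 1 alone, against the reported 4.65%, counted as the same. The median distance of 224 bp from replicate 2 alone, against 216 bp, counted as moved. With starts within 200 bp, 22 X-linked genes were bound, 3 of them at tRNA genes, with a median distance of 155 bp and 0 sharing a peak. With 1000 bp they were 109 and 43, with a median signal of 64.9 and a median distance of 298 bp. In the stronger 50% of peaks they were 22 and 6, with a median signal of 99.2, 93.8% replicate support, 0 sharing a peak and GCGCNTTT at 6.25%. These 3 settings by construction admit other genes. With the nearest start only, 0 shared a peak, against 0.315% on the autosomes; that setting removes sharing by construction and says nothing of the difference. The shorter E2F string gave 40.5%, and windows of 250 bp gave CHR at 73.8%, against 88.5% on the autosomes. With each replicate alone, the median signal was 29.9 to 40.6, on those lists' own scales, and the median distance was 216 to 224 bp; 61 to 72 X-linked genes were bound, 14 to 19 of them at tRNA genes, E2F strings were found at 9.09 to 21.2%, GAGAGA at 52.3 to 59.6%, CHR at 29.5 to 38.5%, shared peaks at 3.77 to 12.8%, and replicate support at 58.5 to 63.8%. GCGCNTTT was then found at 21.2% without replicate 1, below the autosomal 23.5%, where the reported share lies above. Peaks from 1 replicate's list meet the support rule in that replicate by construction, so support there measures rank in the other replicate alone.

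No paired analysis was possible because the study has 1 group. Depth is unknown, so weak peaks cannot be told from shallow sequencing, and no control library was compared. With 42 X-linked peaks, shares have wide intervals.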
